A study of Mus musculus with 24 samples.

Results

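A set of 9 genes that carry or answer hedgehog signalling, or that mark the posterior mesenchyme of the limb bud, were followed across 24 mouse limb bud libraries: Ptch1, Gli1, Hhip, Gli2, Gli3, Smo, Hand2, Grem1 and Osr1. They were chosen by name and are 9 of the 38019 gene symbols in the deposited tables. The data are total RNA sequencing of limb buds from C57/Bl6 embryos in which both alleles of the gene for U11, the small nuclear RNA that recognises the 5′ splice site of minor introns, are floxed. All 8 groups carry these alleles (U11flx/flx). Prrx1-Cre- groups lack the Cre transgene and are named WT here; Prrx1-Cre+ groups carry it and are named mutant. Prrx1-Cre acts in limb mesenchyme, so the other cells of a mutant bud, such as ectoderm, blood and vessel cells, should still carry the floxed gene. Forelimb (FL) and hindlimb (HL) buds were taken at the embryonic stages E10.5 and E11.5, with 3 libraries in each combination of stage, limb and genotype. The study asks what loss of the minor spliceosome does to limb growth and patterning, and the 9 genes belong to the patterning side of that question.

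Hedgehog signalling in the limb starts from the zone of polarizing activity, a group of posterior mesenchymal cells that secrete sonic hedgehog (Shh). Without ligand, the receptor Ptch1 keeps the membrane protein Smo inactive and the transcription factor Gli3 is cut to a repressor. With ligand, Smo is released, Gli2 and Gli3 stay in activating forms, and Ptch1, Gli1 and Hhip are transcribed as direct targets, so their RNA is widely read as a measure of the signal. Hand2 is a posterior transcription factor that acts upstream of Shh and opposes Gli3, Grem1 is a secreted BMP antagonist that links Shh to the FGFs of the apical ridge, and Osr1 is a zinc finger factor of lateral plate and early limb mesenchyme.

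Promoters were available for 7 of the 9 genes in the RefSeq table (build GRCm38.p6); Gli1 and Osr1 were not matched. The 3 below are shown because their genes stand for the roles that follow: a target that is also the receptor (Ptch1), a transducer (Gli2) and a posterior factor (Hand2). Each is the 250 bases before the start of transcription, written 5′ to 3′ on the gene's own strand. They lie at chr13:63565736-63565985 (minus strand), chr1:119053620-119053869 (minus strand) and chr8:57320733-57320982 (plus strand). Capitals mark matches, on either strand, to the GC box GGCGGG or to the GLI core ACCACCC.
Ptch1: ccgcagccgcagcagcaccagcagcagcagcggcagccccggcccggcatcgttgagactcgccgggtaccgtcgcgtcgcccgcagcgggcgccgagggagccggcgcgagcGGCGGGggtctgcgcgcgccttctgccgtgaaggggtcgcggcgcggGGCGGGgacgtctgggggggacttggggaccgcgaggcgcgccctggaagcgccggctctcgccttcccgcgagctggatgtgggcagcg
Gli2: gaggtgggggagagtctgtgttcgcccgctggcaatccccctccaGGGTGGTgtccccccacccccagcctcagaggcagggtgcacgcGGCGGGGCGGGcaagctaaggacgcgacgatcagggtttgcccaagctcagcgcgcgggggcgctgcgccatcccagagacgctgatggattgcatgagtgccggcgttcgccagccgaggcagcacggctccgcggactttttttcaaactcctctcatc
Hand2: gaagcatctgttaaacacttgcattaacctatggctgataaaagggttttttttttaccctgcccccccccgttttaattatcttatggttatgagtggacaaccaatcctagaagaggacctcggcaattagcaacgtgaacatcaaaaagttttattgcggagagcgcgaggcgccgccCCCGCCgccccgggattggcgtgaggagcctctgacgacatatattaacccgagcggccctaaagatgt

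Both strands were searched for 3 motifs, of which the GLI core lies within the GLI consensus GACCACCCA. No member promoter of the 7 held the consensus, which 0.225% of 32851 promoters of the same length held. The core stood in 1 of 7, Gli2, in its reverse complement GGGTGGT, against 3.92% of all promoters. The GC box stood in 6 of 7, all but Smo, against 32.5% of all promoters, and in Gli2 a pair of its matches overlap. These are matches of letters in short windows and do not show binding.

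In the annotation (GENCODE M21, GRCm38) all 9 genes are protein-coding and lie on 7 chromosomes. Ptch1 spans chr13:63508328-63573598 (minus strand), and the start used above is that of 1 of its transcripts, inside the span. Gli1 lies at chr10:127329882-127341974 (minus), Gli2 at chr1:118834132-119053619 (minus), Gli3 at chr13:15463235-15730026 (plus) and Smo at chr6:29735503-29761365 (plus). Hhip lies at chr8:79965851-80058006 (minus), Hand2 at chr8:57320983-57324633 (plus), Grem1 at chr2:113746164-113758646 (minus) and Osr1 at chr12:9570116-9581500 (plus). The antisense gene Hand2os1 shares 3251 of the 3651 bases of Hand2, and the antisense gene Gm47200 shares 9584 of the 12093 bases of Gli1. The strand that was counted is not given in the sources used here, so reads from a gene and its antisense partner cannot be told apart.

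Levels are TPM, the share of transcripts per gene corrected for its length, and so can be compared between genes. They are given on a scale on which the expressed genes of all libraries have an equal median (rescaled TPM). Fold changes are differences of mean log2(rescaled TPM + 1) with the standard error (SE) of a limma fit over all genes, two-sided, with Benjamini-Hochberg adjusted p-values (adjusted p) over all genes tested, and "rose" and "fell" are kept for adjusted p under 0.05. The added 1 makes fold changes of low genes smaller than the ratio of their levels. TPM keeps no read depth, so the counting error of low values is unknown. Whether libraries of a group come from separate embryos is not stated in the labels, and p-values therefore measure the spread among these libraries, which may be technical. A bulk bud does not tell fewer cells of a type from less RNA per cell.

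Several libraries stood apart. Rnu11, the U11 gene, was at 922 to 2090 rescaled TPM in WT and 135 to 420 in mutant libraries at E11.5, but at E10.5 the ranges overlapped (251 to 1060 and 94.2 to 482), with WT FL replicate 1 at 251 below mutant FL replicate 3 at 482. Xist, an RNA of female cells, reached 5 TPM or more in 6 libraries, all of them mutant. In WT libraries it was at most 1.32 rescaled TPM, with the Y-linked Ddx3y at 7.9 to 17.2. Sex and genotype are thus partly confounded. The E10.5 library labelled mutant FL replicate 3 held 17.8 rescaled TPM summed over 5 hindlimb markers, and its forelimb marker Tbx5 was at 1.81. Tbx5 was nearly as low in E10.5 WT FL replicate 1 (2.25), and at 5.24 to 10.1 in the remaining FL libraries of that stage. The other 5 FL libraries of that stage held 0.44 to 1.78 of the hindlimb markers. Mutant FL replicate 3 also held both Xist (8.03) and Ddx3y (6.49). Summed limb mesenchyme markers (14 genes, all detected in every group) ran from 153 in that library to 305 in E11.5 WT FL replicate 1. Within a group, single libraries tended to be extreme for most of the 9 genes at once: E10.5 WT FL replicate 1 was lowest for 8, E10.5 WT HL replicate 1 for 7 and E11.5 mutant HL replicate 3 for 7, whereas E10.5 WT HL replicate 3 and E11.5 WT FL replicate 1 were highest for 7. Calls lost with 1 library left out are marked as such, and some other results carry values without these libraries.

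Smo, the signal-transducing membrane protein, was the most abundant of the 9 in all 8 groups, with means from 15.02 ± 0.28 (SD, n = 3; E11.5 mutant HL) to 20.2 ± 1.85 (E10.5 WT FL). Hhip, a membrane-bound antagonist that sequesters hedgehog ligand, was the least abundant in all 8, with means of 0.225 ± 0.0955 (E10.5 mutant HL) to 0.563 ± 0.117 (E11.5 WT HL) and a highest single value of 1.00. Between them, the order changed with stage. Gli3 took place 2 or 3 at E10.5 and place 4 or 5 at E11.5, and Ptch1 moved from places 3 to 5 at E10.5 to place 2 or 3 at E11.5. Hand2 kept to places 2 to 4 throughout. Gli1 and Gli2 were neighbours in this order, and their means differed by less than the larger SD of the pair in each of the 8 groups.

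**Figure D1:**
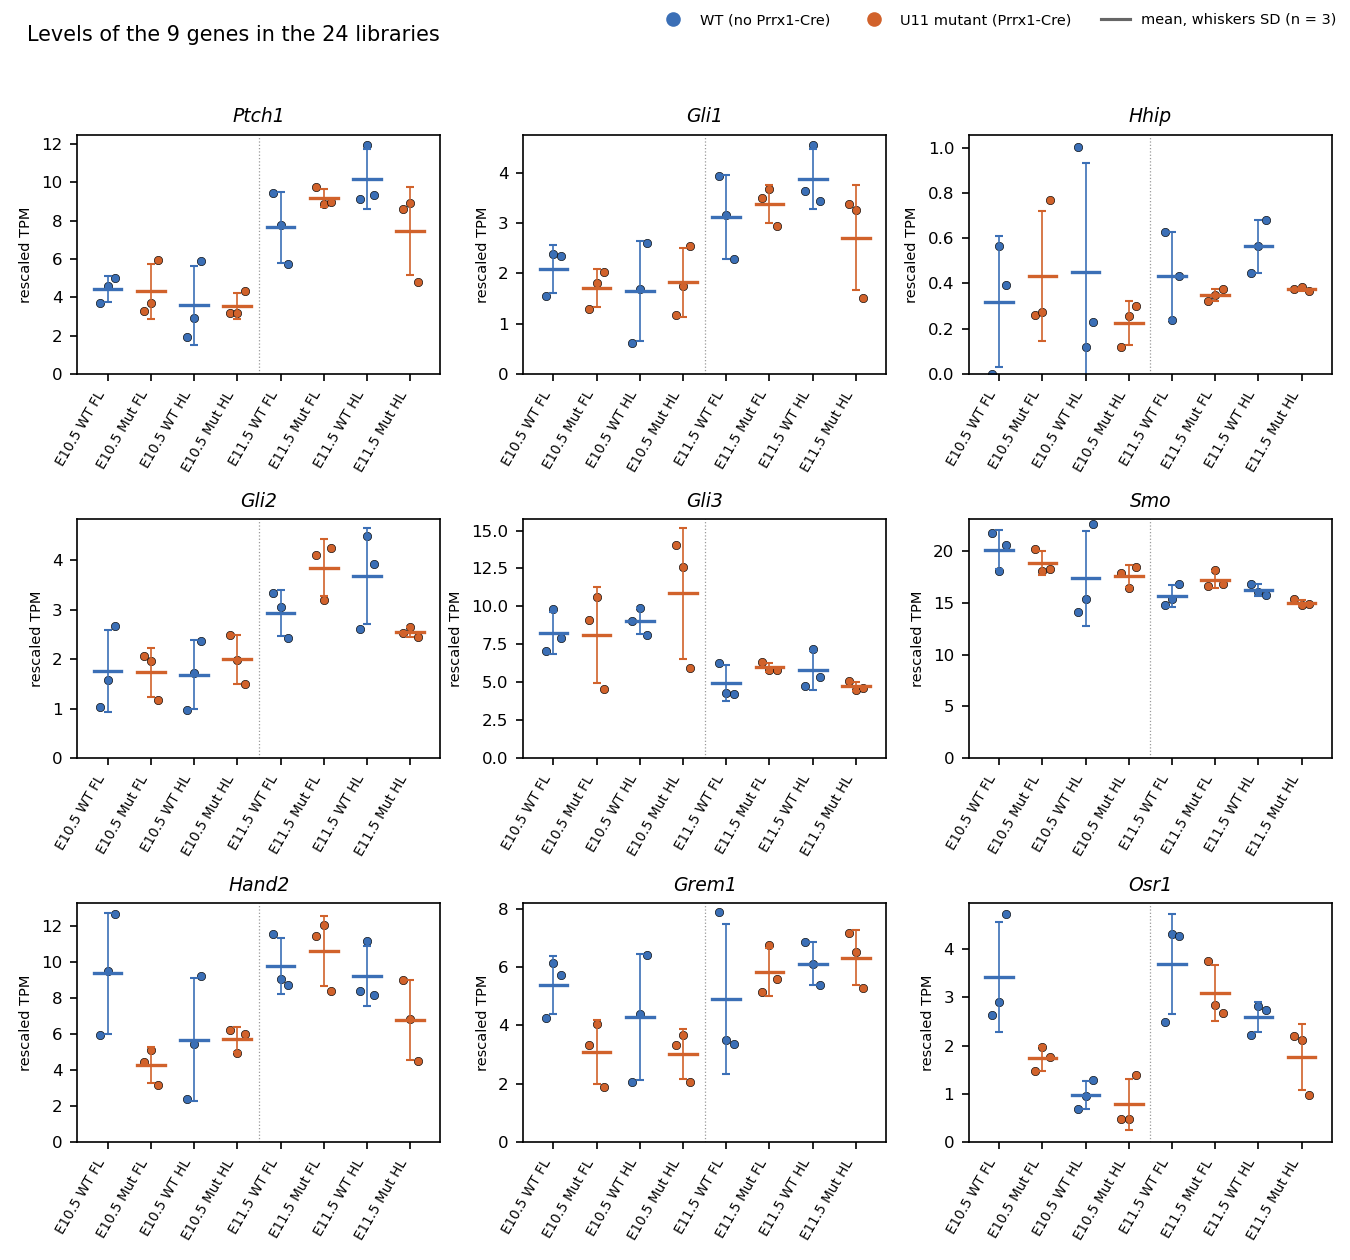
Rescaled TPM of each gene (vertical axes, each starting at 0) in the 8 groups. Points are libraries in replicate order, bars are means and whiskers are SDs (n = 3; whiskers below 0 are not drawn). By mean, Ptch1, Gli1 and Gli2 sit higher at E11.5 than at E10.5 in each genotype and limb (Gli1 and Gli2 in mutant HL have the opposite sign on the deposited scale), Gli3 sits lower, and Hhip never exceeds 1.00.

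Between E10.5 and E11.5 most calls among the members were rises. Ptch1 rose in 3 of 4 comparisons, Gli1 and Gli2 in 2 each, and Gli3 fell in 1 and was lower without passing the test in the other 3. E10.5 reads were trimmed by 3 nt before alignment and no trimming is stated for E11.5, so stage and trimming cannot be told apart. Summed limb mesenchyme markers (14 genes) ran from 153 to 280 rescaled TPM in the earlier libraries and from 249 to 305 in the later ones, and summed endothelial markers (10 genes) from 36.9 to 76.9 and from 24.8 to 44.3. Of the 14 mesenchyme markers 3 rose and 3 fell in WT FL, 5 and 2 in WT HL, 4 and 1 in mutant FL, and 4 and 2 in mutant HL. Of the 10 endothelial markers 0 rose and 5 fell, 0 and 5, 1 and 2, and 0 and 7. No marker of these lists was at 0 in all 3 libraries of a group, and their part in the stage differences was not tested. Stage changed much of the transcriptome: of 12399 genes tested, 22.4% rose and 16.4% fell in WT FL, 23.0% and 17.9% in WT HL, 18.1% and 17.3% in mutant FL, and 18.0% and 17.5% in mutant HL. Against that background, 0 of the 8 testable members rose and 1 fell in WT FL, 4 rose in WT HL, 5 rose in mutant FL, and 3 rose and 1 fell in mutant HL. Hhip was too low to be tested. Rescaling matters here, since on the deposited scale the median of all genes lay at -0.27, -0.42, 0.18 and -0.61 on the log2 scale in the same 4 comparisons, and at 0.06, 0.06, 0.01 and 0.02 after it.

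Ptch1, the hedgehog receptor and a direct target, gave the largest rise of the 8 tested genes in WT HL. Its E10.5 WT HL libraries read 1.93, 2.93 and 5.87 rescaled TPM, and its E11.5 WT HL libraries 9.15, 11.96 and 9.36. Every later library was above every earlier one, a log2 change of 1.37 ± 0.26 (SE; adjusted p = 0.000578 by limma), or 2.84 times the earlier mean. In WT FL it went from 3.70, 4.58 and 5.02 to 9.43, 7.80 and 5.71, again with no overlap, but the change of 0.66 ± 0.26 did not pass (adjusted p = 0.0534; 0.035 to 0.603 over its alternatives).
In mutant FL Ptch1 went from 3.27, 3.71 and 5.95 to 9.74, 8.89 and 8.96, a rise of 0.97 ± 0.26 (adjusted p = 0.00821). In mutant HL it went from 3.19, 3.15 and 4.35 to 8.60, 8.95 and 4.80, a rise of 0.86 ± 0.26 (adjusted p = 0.0161). The groups did not overlap in either limb. In WT HL and mutant FL the call held with each library left out (adjusted p = 6.8e-05 to 0.0422). In mutant HL it was lost without E10.5 replicate 1 or 2 or E11.5 replicate 1 or 2 (adjusted p = 0.0538 to 0.081), and without E11.5 replicate 3 the change was 1.11. On the deposited scale the change in mutant HL was 0.15 (adjusted p = 0.674; 0.00471 to 0.674 over its alternatives).

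Gli1, a transcriptional activator whose RNA depends on the signal, followed Ptch1 at a lower level. In WT HL it rose by 0.95 ± 0.26 (adjusted p = 0.00672), from 0.619, 1.69 and 2.61 rescaled TPM to 3.63, 4.56 and 3.45, with no overlap. The lowest of these, E10.5 replicate 1, carried part of the call: without it the change was 0.64 (adjusted p = 0.0519). In mutant FL Gli1 rose by 0.70 ± 0.26 (adjusted p = 0.0418), from 1.29, 1.81 and 2.03 to 3.496, 3.67 and 2.95, also with no overlap. That call was lost with any 1 of the 6 libraries left out (0.58 to 0.79, adjusted p = 0.0521 to 0.143).
Gli1 in WT FL, at 1.54, 2.38 and 2.35 and then 3.94, 3.15 and 2.28, gave 0.41 ± 0.26 (adjusted p = 0.218). In mutant HL, at 1.18, 1.75 and 2.55 and then 3.37, 3.26 and 1.504, it gave 0.38 ± 0.26 (adjusted p = 0.261), with the opposite sign on the deposited scale (-0.20). The stages overlapped in both. The ratio of Ptch1 to Gli1, which needs no rescaling, ran from 1.71 to 3.19 over all 24 libraries, with a median of 2.19 at E10.5 and 2.58 at E11.5.

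Hhip, the other target of the set, stayed near the bottom of the measured range. It read 0 to 1.00 rescaled TPM at E10.5 (median 0.267) and 0.237 to 0.68 at E11.5 (median 0.379), and is listed at 0 in E10.5 WT FL replicate 1. In mutant HL its 3 later values (0.375, 0.382 and 0.364) lay above the 3 earlier ones (0.118, 0.257 and 0.3); in the other groups the stages overlapped. No fold change is given for a gene at this level.

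Gli2, the main activator among the GLI factors, rose in 2 of 4 comparisons. In WT HL it rose by 0.81 ± 0.22 (adjusted p = 0.00634), from 0.973, 1.71 and 2.37 rescaled TPM to 2.61, 4.50 and 3.94. In mutant FL it rose by 0.84 ± 0.22 (adjusted p = 0.00692), from 2.07, 1.97 and 1.17 to 4.12, 3.19 and 4.25. Both pairs of groups were apart, and both calls held with each library left out (adjusted p = 0.00284 to 0.0449).
In WT FL, Gli2 went from 1.04, 1.57 and 2.67 to 3.33, 3.05 and 2.42, and the change of 0.55 ± 0.22 did not pass (adjusted p = 0.0534). Without E10.5 replicate 3, the highest of the earlier libraries, it was 0.77 (adjusted p = 0.0108), and without E10.5 replicate 1, the lowest, 0.35 (adjusted p = 0.233), in a range of 0.0108 to 0.689 over its alternatives. In mutant HL it went from 2.49, 1.99 and 1.51 to 2.53, 2.65 and 2.46, a change of 0.26 ± 0.22 (adjusted p = 0.373) whose sign turned on the deposited scale (-0.37).

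Gli3, the GLI factor with the main repressor form in the limb, took the opposite course. In mutant HL it fell by 0.98 on the log2 scale (SE 0.26; adjusted p = 0.00676), from 14.1, 12.6 and 5.94 rescaled TPM to 5.06, 4.48 and 4.62, with no overlap. This call held with each library left out (adjusted p = 0.000423 to 0.0464). In WT FL it went from 7.09, 9.80 and 7.93 to 6.28, 4.26 and 4.25 (-0.65 ± 0.26, adjusted p = 0.0506), and in WT HL from 9.07, 9.90 and 8.14 to 4.76, 7.19 and 5.37 (-0.58 ± 0.26, adjusted p = 0.0773).
All 3 later WT libraries lay below all 3 earlier ones in each limb, and 18.8% of genes in WT FL and 22.1% in WT HL were lower without overlap. With the replicate number as a block, Gli3 passed in both by limma (adjusted p = 0.0279 in FL and 0.0453 in HL). Libraries of different stages cannot share an embryo, so this block rests on no known pairing. Deviations of equal replicate numbers correlated between stages at -0.122 to 0.0546 in WT FL and -0.0895 to 0.00823 in WT HL. The ranges of adjusted p over alternatives were 0.0279 to 0.154 and 0.0274 to 0.221. In mutant FL, Gli3 went from 9.08, 10.6 and 4.54 to 6.35, 5.83 and 5.82 (-0.31 ± 0.26, adjusted p = 0.365). Its lowest earlier value there is the library with hindlimb markers, and without it the change was -0.63 (adjusted p = 0.0561). Without E10.5 replicate 2, the highest, it was -0.10 (adjusted p = 0.823).

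The ratio of Gli2 to Gli3 within a library, which needs no rescaling, separated all 12 E10.5 from all 12 E11.5 libraries. Gli2 to Gli3 was 0.107 to 0.337 over the 12 E10.5 libraries and 0.499 to 0.733 over the 12 E11.5 libraries. Gli1 to Gli3 was 0.0683 to 0.447 and then 0.326 to 0.762. Its only late value under 0.5 was the lowest, in E11.5 mutant HL replicate 3. The 2 highest early values, 0.447 and 0.429, were in replicate 3 of E10.5 mutant FL and mutant HL. Ptch1 to Smo was 0.137 to 0.326 and then 0.321 to 0.746, with the overlap made by 2 libraries, E10.5 mutant FL replicate 3 and E11.5 mutant HL replicate 3. The ratios were chosen with the levels known and are given with no test. How many other pairs of genes separate the stages in this way was not counted. Stage and trimming cannot be told apart in these ratios either.

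**Figure D2:**
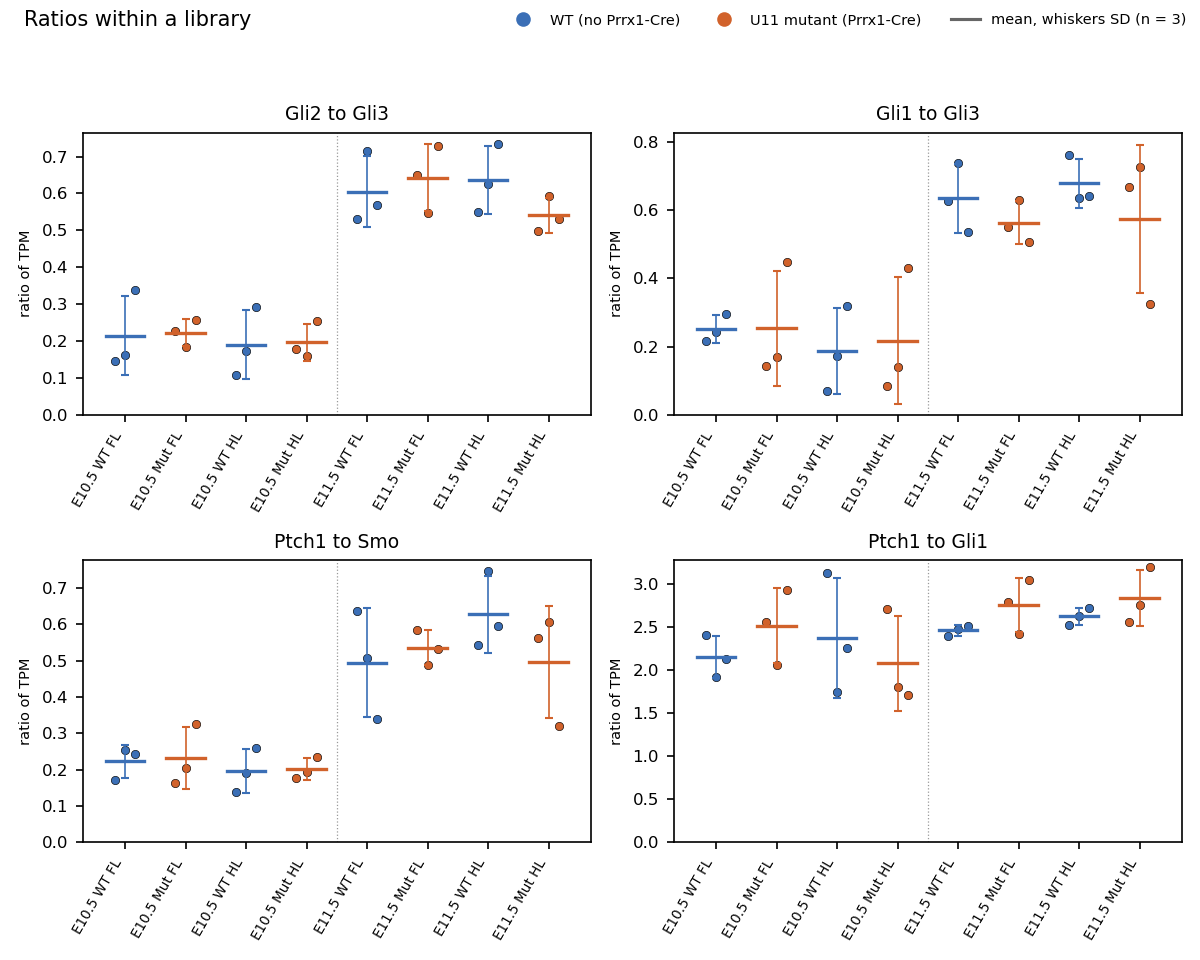
Ratios of TPM within each library (vertical axes, each starting at 0) for Gli2 to Gli3, Gli1 to Gli3, Ptch1 to Smo and Ptch1 to Gli1. Points are libraries in replicate order, bars are means and whiskers SDs (n = 3); Gli2 to Gli3 ends at 0.337 at E10.5 and starts at 0.499 at E11.5, while Ptch1 to Gli1 stays between 1.71 and 3.19.

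Smo fell with stage in 1 of 4 comparisons on the rescaled values. In WT FL it fell by 0.34 on the log2 scale (SE 0.12; adjusted p = 0.0298), from 21.7, 18.1 and 20.6 rescaled TPM to 14.8, 15.4 and 16.8, with no overlap. That call was lost without E10.5 replicate 1 or 3 or E11.5 replicate 1 or 2 (adjusted p = 0.0672 to 0.0996). In mutant HL, Smo went from 17.9, 16.4 and 18.5 to 15.3, 14.8 and 14.9, again with no overlap, and the change of -0.22 ± 0.12 did not pass (adjusted p = 0.165). In WT HL (-0.07) and mutant FL (-0.12) the stages overlapped. On the deposited scale Smo differed by -0.79 in WT FL (adjusted p = 0.0213), -0.68 in WT HL (0.03), 0.11 in mutant FL (0.809) and -1.02 in mutant HL (0.00157).

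**Figure D3:**
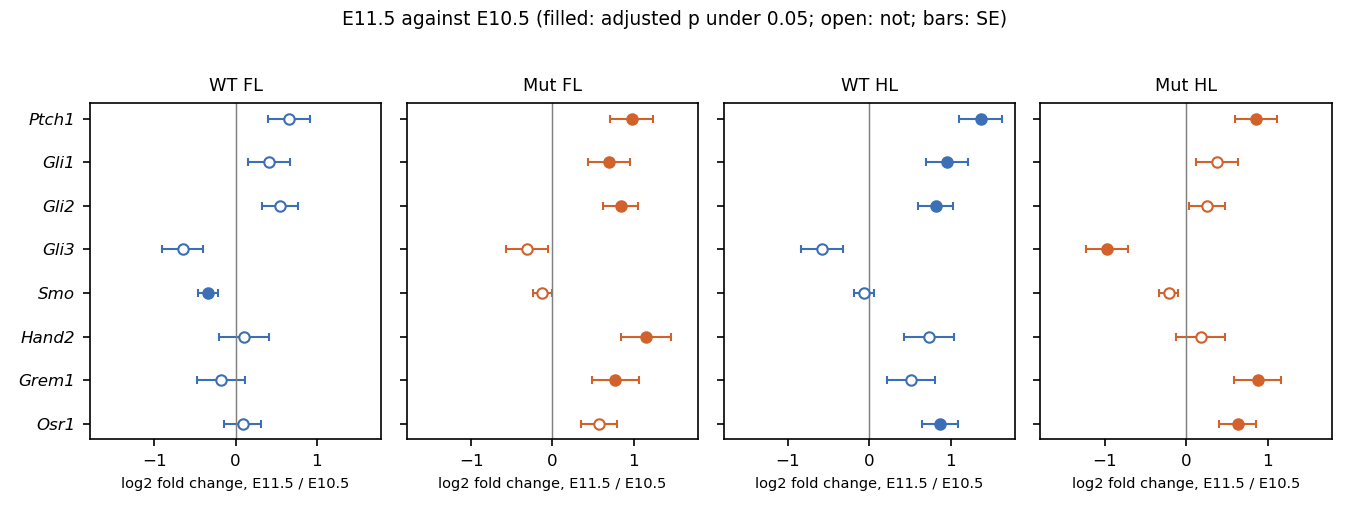
Log2 fold changes of rescaled TPM + 1, E11.5 against E10.5 (horizontal axes), for the 8 testable genes in each genotype and limb; bars are SEs and filled points have adjusted p under 0.05. Ptch1 is filled in 3 panels and right of 0 in all 4, on the deposited scale too. Signs turn on the deposited scale for Hand2, Osr1 (WT FL), Grem1 (WT HL), Smo (mutant FL) and Gli1, Gli2 and Hand2 (mutant HL).

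Of the posterior genes, Hand2, the factor upstream of Shh, rose in mutant FL by 1.15 ± 0.31 (adjusted p = 0.00807), from 4.47, 5.14 and 3.18 rescaled TPM to 11.42, 12.04 and 8.39. The groups were apart, and the call held with each library left out (adjusted p = 0.0116 to 0.0383). WT FL was already at 5.96, 9.48 and 12.7 at E10.5 and read 11.54, 9.08 and 8.71 at E11.5, and those groups overlapped. In WT HL it went from 2.42, 5.44 and 9.22 to 8.38, 11.1 and 8.16, a change of 0.74 ± 0.31 (adjusted p = 0.0611), with 1.11 (adjusted p = 0.0064) without E10.5 replicate 3 and 0.32 (adjusted p = 0.386) without E10.5 replicate 1; adjusted p ran from 0.0064 to 0.728 over its alternatives. In mutant HL the stages overlapped, at 6.20, 4.93 and 6.02 and then 9.003, 6.82 and 4.53.

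Grem1, the BMP antagonist, rose in both mutant limbs. In mutant FL it went from 3.32, 4.04 and 1.89 rescaled TPM to 5.15, 6.75 and 5.60 (0.77 ± 0.29, adjusted p = 0.0446), and in mutant HL from 3.33, 3.66 and 2.06 to 7.15, 6.51 and 5.29 (0.88 ± 0.29, adjusted p = 0.0244). Neither pair of groups overlapped. Neither call held throughout: in FL it was lost with any library but E10.5 replicate 2 left out (adjusted p = 0.0595 to 0.194), and in HL without E10.5 replicate 3 or E11.5 replicate 1 or 2 (adjusted p = 0.0703 to 0.101). In HL it was also lost without the libraries with Xist at 5 TPM or more (0.75, adjusted p = 0.269), with no filter on low values (0.0583) and on the deposited scale (0.723), which made the range over its alternatives 0.0101 to 0.723. In WT FL it read 4.25, 6.15 and 5.72 and then 7.88, 3.51 and 3.35, and in WT HL 2.07, 4.39 and 6.404 and then 6.84, 6.10 and 5.38. The stages overlapped in both WT limbs.

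Osr1, expressed in lateral plate and early limb mesenchyme, rose with stage in both hindlimbs. In WT HL it went from 0.684, 0.966 and 1.28 rescaled TPM to 2.23, 2.82 and 2.73, a rise of 0.87 ± 0.23 (adjusted p = 0.00526) with no overlap that held with each library left out (adjusted p = 0.00573 to 0.0279). In mutant HL it went from 0.477, 0.49 and 1.40 to 2.19, 2.12 and 0.97, a rise of 0.63 ± 0.23 (adjusted p = 0.036) although the groups overlapped. E11.5 replicate 3 is the low late value, and without it the change was 0.86 (adjusted p = 0.00869). The call was lost without replicate 1 or 2 of either stage (0.51 to 0.53, adjusted p = 0.134 to 0.141).
In mutant FL, Osr1 went from 1.47, 1.98 and 1.77 to 3.75, 2.85 and 2.68, a change of 0.57 ± 0.23 with no overlap that did not pass (adjusted p = 0.0546; 0.011 to 0.288 over its alternatives). WT FL read 2.64, 2.90 and 4.73 and then 2.49, 4.31 and 4.27, and these overlapped.

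Over the 4 stage comparisons, tested members that were higher without overlap numbered 1 in WT FL, 4 in WT HL, 6 in mutant FL and 2 in mutant HL, where 25.7%, 28.0%, 27.8% and 27.5% of all genes tested were. Tested members that were lower without overlap numbered 2, 1, 0 and 2, where 18.8%, 22.1%, 24.8% and 24.4% of all genes were. Untested Hhip was higher without overlap in mutant HL as well.
Of the 14 stage calls, 5 stayed on the deposited scale: Smo in WT FL, Ptch1 in WT HL, Ptch1 and Hand2 in mutant FL, and Gli3 in mutant HL. The other 9 were lost there (adjusted p = 0.0519 to 0.723). Without the libraries with Xist at 5 TPM or more, none of the 5 calls in mutant FL was left, with 3 of its 6 libraries in the fit; the 1 E10.5 library left is assumed to vary like the other groups. Of the 4 calls in mutant HL, Grem1 was lost there. With no filter on low values 5 of the 14 were lost, Smo in WT FL, Gli1 and Grem1 in mutant FL, and Grem1 and Osr1 in mutant HL (adjusted p = 0.0551 to 0.107).

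Hindlimb buds were compared with forelimb buds of the same stage and genotype, since the hindlimb develops somewhat later. Of the 8 testable members, 0 passed in any of these 4 comparisons by limma, where 0.0920% and 0.0586% of 11955 genes were called at E10.5 (WT and mutant) and 0.144% and 0.440% of 11126 at E11.5. At an unadjusted p under 0.05 the members counted 1, 1, 0 and 4 of 8, where 9.56%, 6.67%, 6.94% and 16.1% of all genes had one. Osr1 showed the largest difference. At E10.5 its WT HL libraries (0.684, 0.966 and 1.28 rescaled TPM) lay below its WT FL libraries (2.64, 2.90 and 4.73), where 6.08% of all genes were lower and 5.65% higher without overlap. The difference was -1.21 ± 0.24 (adjusted p = 0.113), and it passed with all 24 libraries in 1 fit (-1.14, adjusted p = 0.019; 0.019 to 0.407 over its alternatives). The mean in HL was 0.285 times that in FL.

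Osr1 was also lower without overlap in mutant HL, at both stages. At E10.5 the mutant difference was -0.70 ± 0.24 (adjusted p = 0.628) and at E11.5 -0.56 ± 0.19 (adjusted p = 0.222), where 9.80% and 13.0% of all genes were lower and 7.38% and 8.86% higher without overlap. The E10.5 mutant FL group holds the library with hindlimb markers. With 1 library left out the E10.5 difference ran from -0.96 to -0.55. Without E11.5 mutant HL replicate 3 the later difference was -0.34 (adjusted p = 0.435). In E11.5 WT the limbs overlapped (-0.34 ± 0.19, adjusted p = 0.746), where 7.31% of all genes were lower and 4.96% higher without overlap. The change of the WT difference with stage, 0.78 ± 0.32, did not pass (adjusted p = 0.661); 1 member, Osr1, had an unadjusted p under 0.05 there, as 6.83% of all genes did, and 0.0161% of genes passed.

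Hand2 was lower in HL than in FL in E10.5 WT (-0.74 ± 0.36, adjusted p = 0.553) and in E11.5 mutants (-0.58 ± 0.20, adjusted p = 0.223), with overlap in both and neither passing. Its E10.5 WT difference ran from -1.12 without WT HL replicate 3 to -0.32 without WT HL replicate 1, and its E11.5 mutant difference was -0.36 without mutant HL replicate 3. In E10.5 mutants Hand2 had the opposite sign (0.38 ± 0.36, adjusted p = 0.945), with the library with hindlimb markers in the FL group. In E11.5 WT Hand2 was at -0.07. In E11.5 mutants Gli2 (-0.42 ± 0.15, adjusted p = 0.222), Gli3 (-0.27 ± 0.14, 0.358) and Smo (-0.17 ± 0.07, 0.274) were lower in HL without overlap, as was Osr1. On the deposited scale 7 members passed in that comparison, as did 5140 of the 11126 genes tested, with the median of all genes at -0.44 there. Medians on that scale for the other limb comparisons were 0.22 (E10.5 WT), 0.45 (E10.5 mutant) and 0.06 (E11.5 WT). Ptch1 pointed the other way in E11.5 WT, at 9.15, 11.96 and 9.36 in HL and 9.43, 7.80 and 5.71 in FL, which overlapped (0.38 ± 0.20, adjusted p = 0.73).

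**Figure D4:**
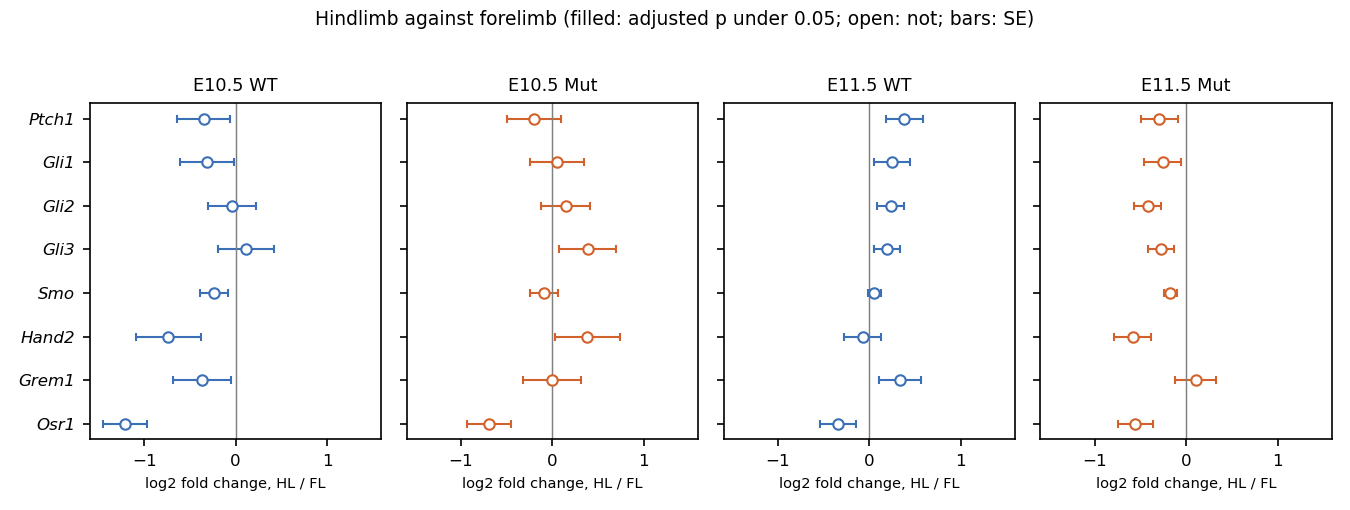
Log2 fold changes of rescaled TPM + 1, HL against FL (horizontal axes), for the 8 testable genes at each stage and in each genotype; bars are SEs, and no point is filled because no adjusted p is under 0.05. Osr1 is left of 0 in all 4 panels, on the deposited scale too, from -1.21 in E10.5 WT to -0.34 in E11.5 WT. Signs turn on the deposited scale for Gli2 and Smo (E10.5 WT), Ptch1, Smo and Grem1 (E10.5 mutant), Hand2 (E11.5 WT) and Grem1 (E11.5 mutant).

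Mutant buds were then compared with WT buds of the same limb and stage. None of the 8 testable members passed in any of the 4 comparisons by limma, where the genes called made up 0.0251% of all tested for FL and 0.00836% for HL at E10.5, and 1.74% for FL and 0.0180% for HL at E11.5. Members with an unadjusted p under 0.05 numbered 2, 0, 0 and 1 of 8, where 5.24%, 1.99%, 22.5% and 6.02% of all genes had one. The WT and mutant groups here also enter the stage and limb comparisons above, so the values share libraries. Every library with Xist at 5 TPM or more was mutant, so sex cannot be fully told apart from genotype.

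In E10.5 FL the 3 posterior genes were lower in mutants and the hedgehog pathway genes were not apart. Hand2 read 4.47, 5.14 and 3.18 rescaled TPM in mutants and 5.96, 9.48 and 12.7 in WT, which did not overlap, with the mutant mean at 0.455 of the WT mean (-0.96 ± 0.36, adjusted p = 0.904). Grem1 read 3.32, 4.04 and 1.89 against 4.25, 6.15 and 5.72 (-0.69 ± 0.32, adjusted p = 0.904), and Osr1 1.47, 1.98 and 1.77 against 2.64, 2.90 and 4.73 (-0.69 ± 0.24, adjusted p = 0.904). All 3 were lower without overlap, and none passed; 4.93% of the 11955 genes tested were lower and 5.47% higher without overlap. The 95% interval of the difference ran from -1.74 to -0.18 for Hand2, from -1.38 to 0.005 for Grem1 and from -1.22 to -0.16 for Osr1.

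These differences were recomputed without the libraries that stood apart. Without mutant FL replicate 3, the library with hindlimb markers, they were -0.82 for Hand2, -0.47 for Grem1 and -0.72 for Osr1. Without WT FL replicate 1 they were -1.23, -0.83 and -0.82. Without the 2 mutant libraries of this group with Xist at 5 TPM or more, which leaves replicate 2 alone, they were -0.73, -0.35 and -0.58. The groups did not overlap for these genes, so leaving libraries out could change the size of the differences but hardly their sign.
Of the summed cell type markers, those of erythroid genes (14 genes) were apart, at 2060 to 2920 in WT and 4530 to 5530 in mutants. Limb mesenchyme markers (14 genes) read 228, 253 and 280 in WT and 228, 238 and 153 in mutants, with 153 in the library with hindlimb markers. Surface ectoderm markers (13 genes) overlapped, at 68.4 to 77.7 and 76.4 to 123. Endothelial (36.9 to 46.5 and 42.4 to 46), myogenic (7.84 to 12.6 and 8.72 to 9.81) and nerve markers (12.6 to 15.6 and 14 to 15) overlapped too. No gene of these lists was at 0 in all 3 libraries of a group. Their part in the lower posterior genes was not tested.

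In E10.5 HL the genotypes overlapped for all 9 genes, where 2.43% of genes tested were higher and 3.32% lower without overlap. Grem1 read 3.33, 3.66 and 2.06 rescaled TPM in mutants and 2.07, 4.39 and 6.404 in WT (-0.33 ± 0.32, adjusted p = 1), a difference that ran from -0.68 without WT HL replicate 1 to -0.03 without WT HL replicate 3. Hand2 read 6.20, 4.93 and 6.02 against 2.42, 5.44 and 9.22. The difference of the mutant effect between the limbs was 1.12 ± 0.50 for Hand2 (adjusted p = 1) and did not pass; Hand2 was the 1 member with an unadjusted p under 0.05, and 0 of 11955 genes passed by limma, with 298 (2.49%) at an unadjusted p under 0.05 and 2 passing on the deposited scale. The 95% interval of this difference for Hand2 ran from 0.015 to 2.22.

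In E11.5 FL, where 11.7% of genes tested were higher and 14.0% lower without overlap, the genotypes overlapped for all 9 genes, the 3 posterior genes included. Hand2 read 11.42, 12.04 and 8.39 in mutants and 11.54, 9.08 and 8.71 in WT. Gli2 (4.12, 3.19 and 4.25 against 3.33, 3.05 and 2.42; 0.29 ± 0.15, adjusted p = 0.252), Gli3 (0.25 ± 0.14, 0.314), Ptch1 (0.26 ± 0.20, 0.463) and Smo (0.13 ± 0.07, 0.296) were higher on the rescaled values and did not pass. On the deposited scale these 4 passed (adjusted p = 0.0285 to 0.0391), where the median of all genes lay at 0.39 and 3733 genes passed in place of 194. Grem1 differed by 0.28 ± 0.23 (adjusted p = 0.485). Without WT FL replicate 1, whose 7.88 stands above 3.51 and 3.35, it was 0.61 (adjusted p = 0.0437; 0.0437 to 0.855 over its alternatives).

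The change of the mutant effect in FL from E10.5 to E11.5 was 1.05 ± 0.43 for Hand2 (adjusted p = 0.329) and 0.95 ± 0.41 for Grem1 (adjusted p = 0.349). Their 95% intervals ran from 0.14 to 1.96 and from 0.09 to 1.81. Neither passed, and 0.0645% of 12399 genes did; these were the 2 members with an unadjusted p under 0.05, as 12.7% of all genes had. In HL the change of the mutant effect between stages had 0 members with an unadjusted p under 0.05, where 2.64% of all genes had one, and 0.00807% of genes passed by limma.

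In E11.5 HL most of the 9 genes were lower in mutants, and mutant replicate 3 stood lowest for most. Ptch1 read 8.60, 8.95 and 4.80 rescaled TPM in mutants and 9.15, 11.96 and 9.36 in WT (-0.42 ± 0.20, adjusted p = 0.754). Gli1 read 3.37, 3.26 and 1.504 against 3.63, 4.56 and 3.45 (-0.41 ± 0.20, adjusted p = 0.754), and Osr1 2.19, 2.12 and 0.97 against 2.23, 2.82 and 2.73 (-0.38 ± 0.19, adjusted p = 0.754). With Smo (-0.09 ± 0.07, adjusted p = 0.774) these were the 4 tested members that were lower without overlap, as 8.45% of the 11126 genes tested were (3.14% were higher without overlap). Untested Hhip was lower without overlap as well, at 0.375, 0.382 and 0.364 against 0.446, 0.563 and 0.68.
Mutant replicate 3 was lowest for 7 of the 9. Without it the differences were -0.17 for Ptch1, -0.16 for Gli1 and -0.17 for Osr1. Gli2 rested less on it: it read 2.53, 2.65 and 2.46 against 2.61, 4.50 and 3.94, with overlap (-0.36 ± 0.15, adjusted p = 0.754), and -0.34 without that library. Summed limb mesenchyme markers were 266 to 297 in WT and 249 to 268 in mutants, and surface ectoderm markers 63 to 120 and 111 to 134. Their part in the lower values was not tested.

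The difference of the mutant effect between HL and FL at E11.5 was -0.65 ± 0.21 for Gli2 (adjusted p = 0.326), -0.68 ± 0.29 for Ptch1 (adjusted p = 0.355), -0.47 ± 0.20 for Gli3 (adjusted p = 0.357) and -0.23 ± 0.10 for Smo (adjusted p = 0.364). These were the 4 members with an unadjusted p under 0.05. None passed, as 0.00899% of 11126 genes did, and 1493 genes (13.4%) had an unadjusted p that low.

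**Figure D5:**
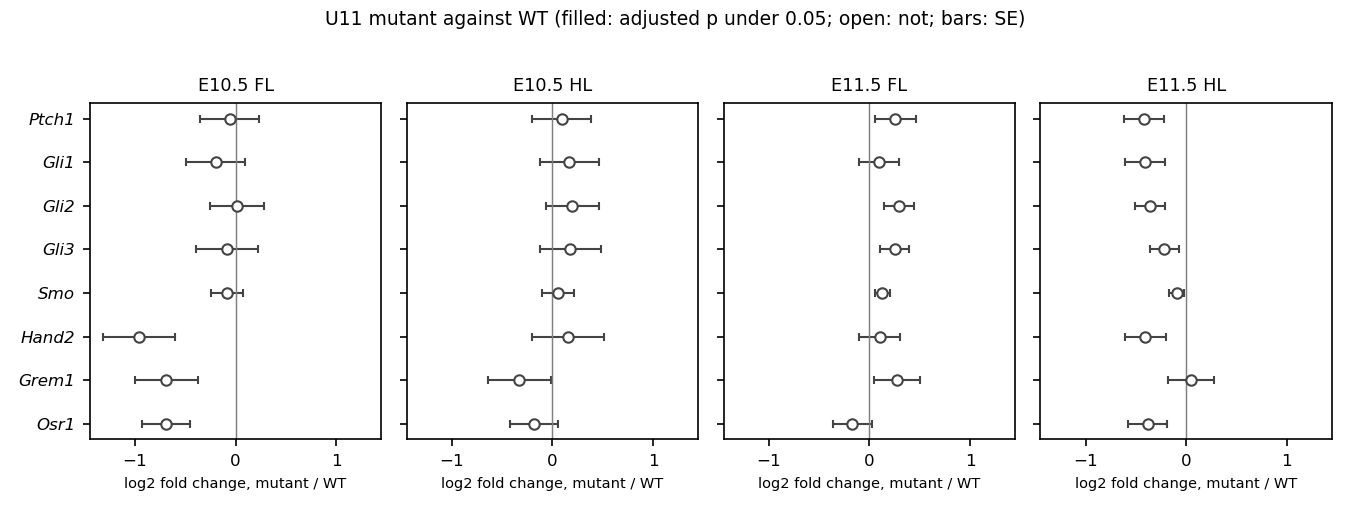
Log2 fold changes of rescaled TPM + 1, mutant against WT (horizontal axes), for the 8 testable genes at each stage and in each limb; bars are SEs, and no point is filled because no adjusted p is under 0.05. In E10.5 FL, Hand2, Grem1 and Osr1 lie between -0.96 and -0.69, and in E11.5 HL all but Grem1 lie left of 0. Signs turn on the deposited scale for Gli2 (E10.5 FL), Osr1 (E11.5 FL) and Grem1 (E11.5 HL).

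The hedgehog ligands themselves were barely measured. Shh, made by few cells of the posterior margin, ran from 0 to 1.32 rescaled TPM (median 0.577) and is listed at 0 in 1 library. Ihh and Dhh, the other two ligands, stayed at or under 0.0883 and 0.149. By group mean, Shh was highest in E11.5 hindlimbs, at 1.32, 1.12 and 0.853 in WT and 1.11, 1.15 and 0.80 in mutants. At E10.5 the hindlimbs read 0, 0.208 and 0.966 in WT and 0.134, 0.112 and 0.269 in mutants. The genotypes overlapped at each stage. It rose with stage in WT HL by 0.65 ± 0.24 (adjusted p = 0.0398) and in mutant HL by 0.78 ± 0.24 (adjusted p = 0.0176). Both calls were lost on the deposited scale (adjusted p = 0.197 and 0.0775), and each was lost with 4 of 6 libraries left out (adjusted p = 0.0889 to 0.191 in WT, 0.051 to 0.0628 in mutants). Shh entered the test through 4 of the 24 libraries, those at 1 deposited TPM or more, of which 2 are from each stage and 1 is from an E11.5 hindlimb. E11.5 WT FL was lower, at 0.597, 0.325 and 0.144. Single forelimb libraries reached the range of the E11.5 hindlimbs, such as E10.5 WT FL replicate 3 at 1.26.

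The rest of the pathway was counted from lists that share some members with the 9. Each list count between stages is to be read beside the shares of all genes that rose and fell, 22.4% and 16.4% in WT FL, 23.0% and 17.9% in WT HL, 18.1% and 17.3% in mutant FL, and 18.0% and 17.5% in mutant HL. Of 6 tested receptors and co-receptors, which include Ptch1 and Smo, 2 rose and 1 fell with stage in WT FL, 2 rose in WT HL, 3 in mutant FL and 2 in mutant HL. Boc, a co-receptor that presents ligand to Ptch1, rose in all 4, by 0.84 ± 0.21, 1.21 ± 0.21, 1.00 ± 0.21 and 0.88 ± 0.21 (adjusted p = 0.000255 to 0.00428); on the deposited scale it passed in mutant FL alone. Gas1, another co-receptor, rose in WT FL (0.56 ± 0.14, adjusted p = 0.0046). The median of this list was 0.32, 0.24, 0.40 and 0.32, beside 0.06, 0.06, 0.01 and 0.02 over all genes.

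Of 19 tested transducers and GLI regulators, which include Gli1, Gli2 and Gli3, 5 rose and 1 fell in WT FL, 6 and 1 in WT HL, 6 and 1 in mutant FL, and 2 and 3 in mutant HL. Kif7, a ciliary kinesin that regulates GLI processing, rose in WT FL (0.61 ± 0.13, adjusted p = 0.00178) and mutant FL (0.66 ± 0.13, adjusted p = 0.00131). Evc, a ciliary partner of Smo, rose in WT HL (0.92 ± 0.21, adjusted p = 0.00192). On the deposited scale the calls of Gas1, Evc and, in WT FL, Kif7 were lost (adjusted p = 0.389 to 0.821). In mutant HL, Prkacb, a catalytic subunit of protein kinase A, rose by 0.52 ± 0.15 (adjusted p = 0.0101) with the opposite sign on the deposited scale (-0.26). Its call could be lost with 1 library left out (adjusted p = 0.00745 to 0.0514). The median of the list lay at 0.11, 0.16, 0.08 and -0.01, near that of all genes. Of 5 tested genes for ligands and their release, 1 rose in WT HL (Shh), 1 in mutant FL, and 1 rose (Shh) and 1 fell in mutant HL. The calls other than those of Shh were Scube1, which helps release ligand, in mutant FL (0.87 ± 0.18, adjusted p = 0.00188) and its relative Scube3 in mutant HL (-0.39 ± 0.14, adjusted p = 0.0323). With 1 library left out the Scube3 call could be lost (adjusted p = 0.0293 to 0.146).

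Counts for posterior and anterior genes of the bud were as follows. Of 18 posterior genes, which include Hand2, Grem1 and Osr1, 5 rose and 2 fell in WT FL, 8 and 1 in WT HL, 12 and 0 in mutant FL, and 7 and 1 in mutant HL. Of 12 anterior genes, which include Gli3, 0 rose and 5 fell, 2 and 5, 1 and 1, and 0 and 5. List medians were 0.27, 0.49, 0.68 and 0.45 for posterior genes and -0.50, -0.47, -0.18 and -0.58 for anterior genes, beside 0.06, 0.06, 0.01 and 0.02 over all genes.
Hoxa13, which marks the distal hand and foot plate, rose by 2.58 ± 0.61 in WT HL (adjusted p = 0.00283), 2.76 ± 0.61 in mutant FL (adjusted p = 0.00256) and 1.89 ± 0.61 in mutant HL (adjusted p = 0.0226). With 1 library left out, the call of Hoxa13 in mutant HL could be lost (adjusted p = 0.00594 to 0.101). Alx4, a homeobox gene of anterior mesenchyme, fell in WT HL (-1.15, adjusted p = 0.000535) and in mutant HL (-0.90, adjusted p = 0.00391). Against the list, Hoxd10 fell with stage in WT FL, WT HL and mutant HL (-0.80, -0.71 and -0.67, adjusted p = 0.00159, 0.00314 and 0.00576).

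Of the other posterior genes, Bmp2 (0.91 ± 0.16, adjusted p = 0.000382) and Dkk2 (0.93 ± 0.20, adjusted p = 0.00141), a secreted BMP and a WNT antagonist, rose in WT FL. Jag1, a Notch ligand (1.19 ± 0.27, adjusted p = 0.0028), and Hoxd12 (1.66 ± 0.43, adjusted p = 0.00651) rose in mutant FL. Of 19 genes of the ridge and BMP loop, which include Grem1 and Shh, 4 rose and 1 fell in WT FL, 4 and 1 in WT HL, 11 and 0 in mutant FL, and 6 and 2 in mutant HL. Bmp7 (0.88 ± 0.16, adjusted p = 0.000599) and the FGF target Etv4 (0.96 ± 0.17, adjusted p = 0.000617) led it in mutant FL.

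Between genotypes these lists held 2 calls. In E11.5 FL, of 17 tested ridge and BMP genes, Etv4 was higher in mutants (0.51 ± 0.10, adjusted p = 0.03) and the FGF receptor Fgfr2 lower (-0.36 ± 0.08, adjusted p = 0.0444), the latter with the opposite sign on the deposited scale (0.14, adjusted p = 0.526; 0.0556 to 0.159 with 1 library left out). Etv4 was lost with 4 of 6 libraries left out (adjusted p = 0.0677 to 0.138). In E10.5 FL, 13 of 15 tested posterior genes, Hand2, Grem1 and Osr1 included, were lower and 0 passed, with a list median of -0.46 beside 0.02 over all genes. Other lists were lower there too: 12 of 14 limb mesenchyme markers (median -0.32), 13 of 16 ridge and BMP genes (-0.16) and 8 of 11 anterior genes (-0.09). All 11 tested erythroid markers (0.73), 11 of 12 surface ectoderm markers (0.34) and all 5 hindlimb markers (0.43) were higher. The mutant group of this comparison holds the library with hindlimb markers, and no list count is given without it. The part of that library and of these lists in the posterior count was not tested. In E11.5 HL 14 of 17 posterior genes were lower and 0 passed (median -0.27 beside -0.03), and 17 of 18 transducers were lower and 0 passed (median -0.17). Between limbs, 16 of 17 posterior genes were lower in HL in E11.5 mutants (median -0.49 beside -0.02), and 1 passed, Hoxd10 (-0.62 ± 0.09, adjusted p = 0.0145). That call was lost with 4 of 6 libraries left out (adjusted p = 0.0517 to 0.0987). In E10.5 WT 13 of 15 posterior genes were lower in HL (median -0.56), in E11.5 WT 10 of 17 (-0.26) and in E10.5 mutants 6 of 15 (0.09), and 0 passed. In E11.5 mutants 17 of 18 transducers were lower in HL too (median -0.18), and 0 passed.

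For each of the 9, the 3 genes with the most similar course over the 24 libraries were found among 5560 genes with a mean of at least 5 rescaled TPM, by Pearson's r on log2 values. The libraries share stage, depth and scale, so r is a description and carries no p. Ptch1 went with Sox11 (r = 0.928), Cenpb (0.927) and Tmem259 (0.926), and Gli1 with Plxnb1 (0.885), Kif26b (0.885) and Hoxa13 (0.882). Gli2 went with Elmo2 (0.928), Zswim4 (0.927) and Khsrp (0.918), and Gli3 with Ttll4 (0.923), Gon4l (0.919) and Lrrc58 (0.917). Of these, Sox11 is a SOX transcription factor and Plxnb1 a semaphorin receptor.
Hand2 went with Smarcc2 (0.936), a chromatin remodelling subunit, Elk3 (0.902) and Hoxd12 (0.867), itself a posterior gene. Grem1 went with Sertad4 (0.824), Ss18 (0.807) and Vcam1 (0.801), and Osr1 with Gas2 (0.887), the cartilage collagen gene Col9a1 (0.887) and Sesn3 (0.879). Smo went with Eva1b (0.907), Atp5d (0.886) and Ubl7 (0.864). Hhip, at its low level, had no partner above 0.736.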

How the data were processed

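Per the labels, limb buds were placed in Trizol and total RNA was sequenced from stranded libraries on a NextSeq500. The authors deposited TPM values for gene symbols, which sum to 1000000 in every library. The submitters' processing notes name HISAT2 and mm10; which quantifier, annotation and strand were used is not given in the sources used here. Reads of E10.5 lost 3 nt by trimming, per the labels.

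Libraries were rescaled to 1 median log2(TPM) of the genes that reach 5 TPM throughout the libraries fitted (4168 genes at E10.5, 3949 at E11.5, 3518 in all 24). A gene was tested where 3 or more libraries reached 1 deposited TPM. The model was limma (version 3.58.1, R 4.3.3, trend on) on log2(TPM + 1), with the 12 libraries of 1 stage (residual df 8) or, between stages, all 24 (residual df 16). Printed levels use the 24-library scale. P-values are two-sided and were adjusted over all genes by Benjamini-Hochberg, with a threshold of 0.05. The procedure was tested on simulated data. Pairing by replicate number was checked by correlating deviations from group means: only FL and HL of E10.5 mutants had all 3 pairs over 0.1 (0.106 to 0.198).

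Members are named in every comparison, other list genes by lowest adjusted p up to 3 per list and comparison, and 3 most correlated genes per member; a few genes under this rule are not reported here. Members and lists were chosen with earlier results of these data known. Alternatives were the deposited scale, a pseudocount of 0.1, no filter, nuclear protein-coding genes summed anew, other sets of libraries, the replicate block, leaving out each library, and leaving out libraries with Xist at 5 TPM or more. Positions are from GENCODE M21, promoters from RefSeq (GRCm38.p6). Figures were drawn with matplotlib 3.10.9 in Python 3.11.15.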

Additional observations from a re-analysis of the deposited data

How the results depend on the processing

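Over 136 member fold changes and 2008 alternative values, 38 fold changes turned sign under some setting, 18 of them on the deposited scale and 27 with 1 library left out (a fold change can be in both). Of the 14 that passed, 0 turned sign under any setting, 5 passed on the deposited scale, 14 among nuclear protein-coding genes summed anew, and 7 with each library left out. On the deposited scale 4 members passed in mutant against WT at E11.5 FL (0 after rescaling) and 7 in HL against FL of E11.5 mutants (0). Of all 11126 genes tested there, 3733 and 5140 passed on that scale. In the stage comparisons 3 members passed in mutant FL (5) and 2 in mutant HL (4). Of all 12399 genes, 1020 passed in mutant FL, 6309 in mutant HL, 2723 in WT FL and 4281 in WT HL on that scale. With all 24 libraries 1 passed in HL against FL of E10.5 WT (0). In the stage comparison of WT FL (1), a pseudocount of 0.1 gave 2, no filter 0, and the 6 compared libraries 2. No filter gave 3 in mutant FL and 2 in mutant HL. Without the libraries with Xist, 0 passed in mutant FL. With 1 library left out, counts were 0 to 1 in mutant against WT at E11.5 FL and, between stages, 0 to 2 in WT FL, 3 to 4 in mutant FL and 1 to 4 in mutant HL. Between stages in WT HL, Gli1 was lost without E10.5 replicate 1 and Hand2 was gained without E10.5 replicate 3. On the deposited scale Gli1, Gli2 and Osr1 were lost in WT HL, and Gli3 and Smo were gained as lower. Signs turned on the deposited scale for Gli1 (-0.20), Gli2 (-0.37), Bmpr1a (-0.15) and Prkacb (-0.26) between stages in mutant HL, Bmpr1a (-0.0599) in WT HL, and Fgfr2 (0.14) in mutant against WT at E11.5 FL.

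With the replicate number as a block, 2 members passed between stages in WT FL (1 without the block), and among the reported fold changes 2 calls changed, both gained (Gli3 in WT FL and WT HL). A pairing of FL with HL was seen in the deviations of E10.5 mutants alone. The 14 calls are all between stages, where the block joined equal replicate numbers across stages and limbs. All 14 kept their call with that block, and none was tested with FL paired to HL. The sex genes also went with replicate number in mutants. At E11.5 Xist was high in replicate 3 of both limbs (25.9 in FL and 24.9 in HL) and Ddx3y in replicates 1 and 2. At E10.5 replicates 1 and 2 matched between limbs, and replicate 3 matched for Xist but not for Ddx3y (6.49 in FL, 0 in HL). Whether paired limbs share an embryo is not stated in the labels. Where TPM is low, as for Hhip and Shh, depth is unknown and limits precision.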
